A study of Mus musculus with 12 samples.

Results

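The genes described here are 9 transcripts of the megakaryocyte and platelet programme, Pf4, Rab27b, Plek, Itga2b, Cd9, Vwf, Gp9, Gp1bb and Treml1, measured in mouse bone marrow stem and progenitor cells. They are the rows of the deposited expression table that carry these 9 symbols, out of 15366 genes listed. Poly(A) RNA was sequenced from untreated C57BL/6 bone marrow LSK cells, the fraction without lineage markers and with Sca-1 and Kit on its surface, which holds blood stem cells and multipotent progenitors, collected by flow sorting. There were 4 genotype groups of 3 libraries each. The group called KDM6B OE here carried human KDM6B under Vav, with no Cre named. The Tet2 KO group carried Vav Cre with both Tet2 alleles floxed. The double lesion group carried all of these together, that is human KDM6B under Vav, Vav Cre and floxed Tet2. The control group carried Vav Cre alone, so the KDM6B OE group differs from its control by the transgene and also by having no Cre named. Every comparison that uses the KDM6B OE libraries, also that with double lesion cells, includes this difference in Cre. It cannot be told apart from the lesion there. The Vav promoter drives expression throughout blood cells, so neither lesion is limited to stem cells or to the megakaryocyte lineage. The labels give neither the age of the mice nor whether libraries of a group came from separate mice. The p-values below therefore set a difference against the spread between libraries within groups, which may in part be technical. The series title concerns cooperation of KDM6B with loss of TET2 in chronic myelomonocytic leukaemia. The comparisons ask how each lesion, and both together, stand against Vav Cre for these 9 genes.

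Megakaryocytes are the large bone marrow cells that shed platelets, and their genes are transcribed at a low level in part of the stem cell pool, which is called megakaryocyte priming. In mouse marrow, stem cells that express Vwf or Itga2b are known for a bias towards platelet output. KDM6B removes repressive methyl marks from histone tails, and TET2 oxidises methylated cytosine in DNA. GATA, ETS and RUNX factors are the textbook regulators of megakaryocyte promoters.

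The promoters of Pf4 and Gp9 are shown because, of the 9 genes, Pf4 had the largest difference in double lesion cells and Gp9 the smallest. The sequences are the 250 bases before the annotated start, from RefSeq (GRCm38.p6), which held 7 of the 9 promoters and had no entry for Vwf or Rab27b. Capitals mark the ETS letters AGGAAG and the RUNX letters TGTGGT on either strand. Both windows are on the plus strand, that of Pf4 at chr5:90772185-90772434 and that of Gp9 at chr6:87777820-87778069.
Pf4: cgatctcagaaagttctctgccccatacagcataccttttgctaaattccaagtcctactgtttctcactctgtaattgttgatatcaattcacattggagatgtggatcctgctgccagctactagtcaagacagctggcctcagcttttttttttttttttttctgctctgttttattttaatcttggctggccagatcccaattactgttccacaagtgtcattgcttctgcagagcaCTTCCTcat
Gp9: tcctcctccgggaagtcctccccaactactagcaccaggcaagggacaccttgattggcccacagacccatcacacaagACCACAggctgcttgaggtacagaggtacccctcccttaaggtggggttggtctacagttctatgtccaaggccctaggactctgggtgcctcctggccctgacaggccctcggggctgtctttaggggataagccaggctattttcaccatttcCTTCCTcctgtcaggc
The ETS letters begin 9 bases before the start of Pf4 and 16 bases before the start of Gp9, in both on the opposite strand. Over the whole window of 250 bases before to 50 bases after a start, searched on both strands, AGGAAG was found in Itga2b at 125 and 43 bases before the start and once each in Cd9 and Gp1bb, and not in Plek or Treml1. The same letters are in 35.4% of all 32851 RefSeq promoters of this length, and their presence in 5 of 7 windows here is a description only. The RUNX letters, in 16.8% of all promoters, were found in Gp9 alone among the 7, beginning 171 bases before the start. The GATA letters AGATAA, in 11.2% of all promoters, were found in Pf4 alone, beginning 37 bases after the start and so outside the printed stretch. No 2 of these motifs overlapped in the 7 windows. The RefSeq starts are not always the GENCODE gene ends given below. The window searched for Plek, chr11:17008669-17008968, lies inside the gene as placed below, and that for Itga2b, chr11:102469834-102470133, lies mostly inside it.

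The values are whole read counts divided by the authors' effective library size (CPM, the usual scaling to a common library size), and every library had 21935022 to 26263370 reads on the listed genes. The weight of 1 read lay between 0.0373 and 0.0463 CPM, and each of the 9 genes had reads in every library, the fewest being 92 for Treml1. Tet2 had 24.1 to 31.6 CPM in Tet2 KO libraries, 26.5 to 37.2 CPM in double lesion libraries and 64.9 to 87.6 CPM in KDM6B OE libraries, against 66.2 to 97.1 CPM in Vav Cre libraries. No value stands for the human transgene, since the reads were assigned to the mouse genome. Y-linked transcripts were present in 4 libraries (Tet2 KO 1, double lesion 1 and 3, and Vav Cre 1) and close to 0 in the other 8, so the groups are not balanced for sex. Of 10 LSK markers none was at 0, and their summed level was 2982 to 3311 CPM with KDM6B OE, 2827 to 3579 CPM with Tet2 KO, 3199 to 3800 CPM in double lesion and 2372 to 3076 CPM in Vav Cre libraries. The 6 measured markers of mature megakaryocytes and platelets outside the 9 genes summed to 69.9 to 81.2 CPM, 75.4 to 92.3 CPM and 77.4 to 85.2 CPM in KDM6B OE, Tet2 KO and double lesion libraries, and to 73.3 to 91.0 CPM in Vav Cre libraries. The 18 immediate early genes, a class that responds quickly to stress and handling, summed to 7341 to 10583 CPM in KDM6B OE libraries, 1458 to 3081 CPM in Tet2 KO libraries and 7416 to 11240 CPM in double lesion libraries, against 1351 to 2603 CPM in Vav Cre libraries. The 3 eosinophil markers, all higher in double lesion cells by limma, summed to 136 to 736 CPM with KDM6B OE, 152 to 820 CPM with Tet2 KO and 513 to 4128 CPM in double lesion libraries, against 573, 17.8 and 8.13 CPM in Vav Cre 1, 2 and 3. The 8 measured neutrophil markers, of which 3 were higher in double lesion cells, summed to 2563 to 3556 CPM with KDM6B OE, 2617 to 6979 CPM with Tet2 KO and 2918 to 5643 CPM in double lesion libraries, against 2022 to 4622 CPM in Vav Cre libraries. The 7 mast cell and basophil markers summed to 116 to 377 CPM with KDM6B OE, 281 to 573 CPM with Tet2 KO and 396 to 483 CPM in double lesion libraries. In Vav Cre 1, 2 and 3 they summed to 415, 432 and 103 CPM. The part of these lists in the results below was not tested. In bulk RNA, fewer cells of a type and less RNA per cell cannot be told apart.

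Against Vav Cre, Pf4 fell in double lesion cells, to 0.483 times its Vav Cre mean, and was at similar levels in the cells with a single lesion, where the difference did not pass the threshold. None of the other 8 genes passed in any comparison. Differences were tested with limma on log2(CPM + 1) across 13046 genes with CPM above 1 in at least 3 libraries, with 1 mean per group, Benjamini-Hochberg adjustment over all 13046 and a threshold of 0.05. Log2 differences below are on this scale, which understates the change of low genes. All 9 genes passed the filter on low values.

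**Figure D1:**
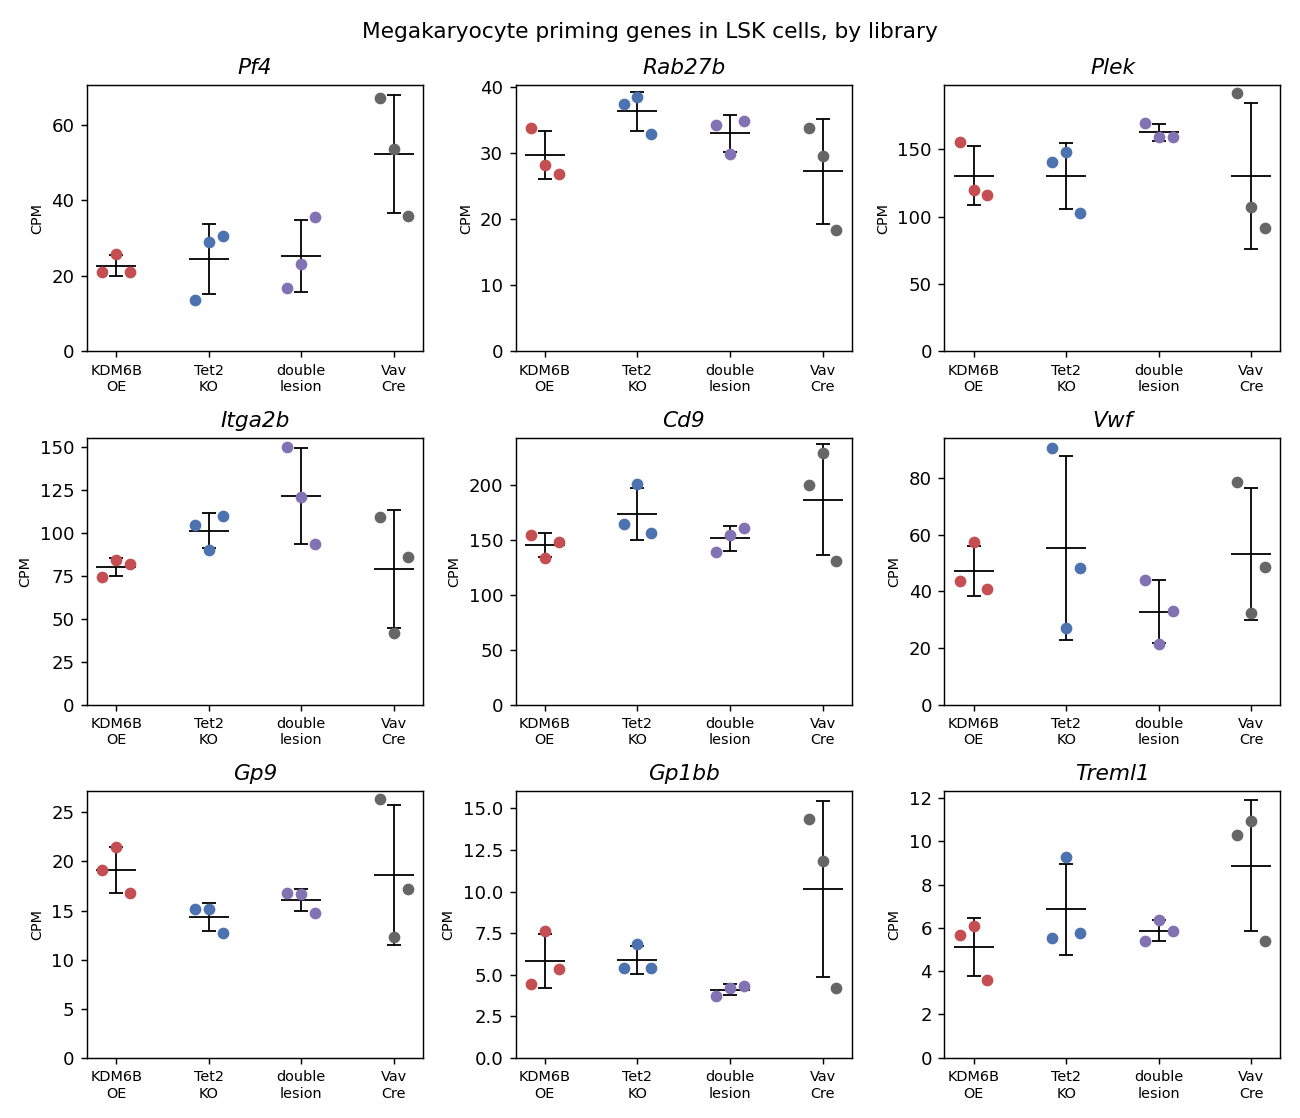
CPM of the 9 genes (vertical axes, each starting at 0) by genotype group (horizontal axes). Points are libraries, the horizontal bar is the mean and the whiskers are 1 SD (n = 3). All Pf4 points of the 3 lesion groups lie below all 3 Vav Cre points, and the Vav Cre points of most genes are widely spread.

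Pf4 encodes platelet factor 4, a chemokine stored in alpha granules that megakaryocytes also release in marrow. The gene (ENSMUSG00000029373.7) lies at chr5:90772435-90773383 on the plus strand (GENCODE M21, GRCm38), next to the promoter printed above. Its level was 21.1, 25.9 and 21.1 CPM in the KDM6B OE libraries 1 to 3, 13.7, 29.0 and 30.5 CPM in the Tet2 KO libraries, and 16.8, 23.3 and 35.6 CPM in the double lesion libraries, against 67.2, 53.5 and 36.0 CPM in the Vav Cre libraries. All 9 libraries with a lesion were below all 3 Vav Cre libraries, with double lesion 3 and Vav Cre 3 nearly touching. Of all tested genes, 2.96% had the 9 lesion libraries wholly below the Vav Cre libraries. The mean was 22.7 ± 2.77 CPM for KDM6B OE, 24.4 ± 9.27 CPM in Tet2 KO, 25.2 ± 9.56 CPM in double lesion and 52.2 ± 15.6 CPM in Vav Cre cells (SD, n = 3).

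The log2 difference of Pf4 was -1.04 ± 0.32 (SE) in double lesion cells, with a 95% interval of -1.72 to -0.36 (limma, adjusted p = 0.0426). It was -1.13 ± 0.32 in KDM6B OE cells (limma, adjusted p = 0.109) and -1.10 ± 0.32 in Tet2 KO cells (limma, adjusted p = 0.234). These 3 comparisons share the Vav Cre libraries, and the differences of similar size meet different backgrounds, since 14.9% of all genes passed in double lesion cells, 0.598% in KDM6B OE cells and 0.0307% in Tet2 KO cells. The call in double lesion cells was narrow. It was lost under 10 of 19 alternative settings, over which the adjusted p ran from 0.00898 to 0.183. These were edgeR on the recovered reads (adjusted p = 0.0506), a term for sex, the compared groups alone, and limma fits without any one KDM6B OE library, without double lesion 1 (-0.79) or 2, or without Vav Cre 1 (-0.84) or 2. With DESeq2 on the recovered reads Pf4 passed in KDM6B OE (adjusted p = 0.00954), Tet2 KO (adjusted p = 0.0481) and double lesion cells (adjusted p = 0.00898), and with limma it passed in all 3 without Vav Cre 3. Leaving out Vav Cre 3 raised the calls over all genes as well. They went from 78 to 1934 in KDM6B OE, from 4 to 307 in Tet2 KO and from 1947 to 3585 in double lesion cells. This is the background of each call without Vav Cre 3 below.

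Rab27b encodes a small GTPase that docks platelet granules for secretion. The gene (ENSMUSG00000024511.15) lies at chr18:69979131-70141605 on the minus strand. Its level was 33.8, 28.3 and 26.9 CPM in KDM6B OE, 37.4, 38.6 and 33.0 CPM in Tet2 KO and 34.3, 29.8 and 34.9 CPM in double lesion libraries, against 33.7, 29.6 and 18.4 CPM in Vav Cre libraries. Vav Cre 3 was the lowest of the 12 libraries and every group overlapped Vav Cre. The log2 difference was 0.44 ± 0.20 in Tet2 KO cells (limma, adjusted p = 0.353), 0.31 ± 0.20 in double lesion cells (limma, adjusted p = 0.300) and 0.15 ± 0.20 in KDM6B OE cells (limma, adjusted p = 0.685).

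Plek encodes pleckstrin, the main substrate of protein kinase C in platelets, which takes part in granule release and actin reorganisation and is also made by other white blood cells. The gene (ENSMUSG00000020120.15) lies at chr11:16971206-17052381 on the minus strand, and 4.44% of its exon bases are shared with Cnrip1 on the opposite strand. Its level was 155, 120 and 116 CPM in KDM6B OE, 140, 148 and 103 CPM in Tet2 KO and 169, 159 and 159 CPM in double lesion libraries, against 192, 107 and 91.7 CPM in Vav Cre libraries. The double lesion libraries were close together and above all KDM6B OE and all Tet2 KO libraries, while the Vav Cre libraries spanned the whole range of the 12. Against Vav Cre the log2 difference was 0.39 ± 0.22 in double lesion cells (limma, adjusted p = 0.247). It was 0.71 without Vav Cre 1, where it passed (limma, adjusted p = 0.0229). In KDM6B OE and Tet2 KO cells it was 0.06 ± 0.22 each.

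Itga2b encodes the alpha-IIb chain of the platelet fibrinogen receptor and appears early in the lineage, in stem and progenitor cells. The gene (ENSMUSG00000034664.13) lies at chr11:102453297-102470122 on the minus strand. Its level was 74.5, 84.4 and 82.1 CPM in KDM6B OE, 105, 90.1 and 110 CPM in Tet2 KO and 150, 121 and 93.8 CPM in double lesion libraries, against 110, 41.5 and 86.0 CPM in Vav Cre libraries. Vav Cre 2 was the lowest of the 12 and double lesion 1 the highest, and the double lesion libraries overlapped those of Vav Cre. In Vav Cre 2 the 7 measured erythroid markers summed to 1720 CPM, against 242 to 677 CPM in the other 11 libraries. Most of that sum was Car1, at 1423 CPM in Vav Cre 2 and 183 to 511 CPM in the other 11. No values were listed for the globin genes among the erythroid markers. The part of these markers in the low Itga2b value was not tested. In double lesion cells the log2 difference was 0.70 ± 0.27, with a 95% interval of 0.12 to 1.27 (limma, adjusted p = 0.0898). It was 0.46 ± 0.27 in Tet2 KO cells (limma, adjusted p = 0.466) and 0.13 ± 0.27 in KDM6B OE cells (limma, adjusted p = 0.815). Without Vav Cre 1 the double lesion difference was 0.99 and passed (limma, adjusted p = 0.0288).

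Cd9 encodes a tetraspanin that is abundant on platelets and on stem cells. The gene (ENSMUSG00000030342.8) lies at chr6:125460266-125494791 on the minus strand, and 10.7% of its exon bases are shared with Gm26728 on the opposite strand. Its level was 155, 133 and 148 CPM in KDM6B OE, 164, 201 and 157 CPM in Tet2 KO and 139, 155 and 160 CPM in double lesion libraries, against 200, 229 and 131 CPM in Vav Cre libraries. Vav Cre 2 was the highest and Vav Cre 3 the lowest of the 12 libraries. Cd9 differed by -0.32 ± 0.17 in KDM6B OE cells (limma, adjusted p = 0.289), -0.07 ± 0.17 in Tet2 KO cells (limma, adjusted p = 0.882) and -0.27 ± 0.17 in double lesion cells (limma, adjusted p = 0.306). Without Vav Cre 3 it was -0.56 in KDM6B OE and -0.50 in double lesion cells, and both passed (limma, adjusted p = 0.0148 and 0.0116).

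Vwf encodes von Willebrand factor, which tethers platelets to injured vessels and is also made by endothelium. The gene (ENSMUSG00000001930.17) lies at chr6:125546774-125686679 on the plus strand. Its level was 43.6, 57.2 and 40.7 CPM in KDM6B OE, 90.6, 26.9 and 48.2 CPM in Tet2 KO and 43.9, 21.5 and 33.0 CPM in double lesion libraries, against 78.6, 32.4 and 48.5 CPM in Vav Cre libraries. Tet2 KO 1 and Vav Cre 1, both with Y-linked transcripts, stood above the rest, and the groups overlapped throughout. Double lesion 1 and 3, the other libraries with these transcripts, were at 43.9 and 33.0 CPM. Vwf differed by -0.65 ± 0.39 in double lesion cells (limma, adjusted p = 0.270), -0.09 ± 0.39 in KDM6B OE cells and -0.02 ± 0.39 in Tet2 KO cells. With a term for sex the double lesion difference was -0.99 (limma, adjusted p = 0.0271). The 6 measured endothelial markers summed to 75.7 to 108 CPM with KDM6B OE, 93.8 to 130 CPM in Tet2 KO and 103 to 146 CPM in double lesion libraries, against 53.5 to 87.8 CPM in Vav Cre libraries, with Cdh5 at most 0.44 CPM anywhere. The double lesion sums were above those of Vav Cre and overlapped those of KDM6B OE and Tet2 KO. The single markers did not all go that way. Of the 5 tested, 3 had a positive double lesion difference from Vav Cre, with a median of 0.11. Tie1 alone passed, as higher, where 7.34% of all genes did. In libraries 1 to 3 the sums were 87.8, 53.5 and 77.8 CPM in Vav Cre and 146, 103 and 108 CPM in double lesion. Within both of these groups the libraries stood in the same order for Vwf, while within KDM6B OE and Tet2 KO the order differed. The part of these markers in the Vwf values was not tested.

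Gp9 and Gp1bb encode subunits of the glycoprotein Ib-IX-V complex, the platelet receptor for von Willebrand factor. Gp9 (ENSMUSG00000030054.4, chr6:87778072-87779768, plus strand) was at 19.2, 21.5 and 16.7 CPM in KDM6B OE, 15.1, 15.1 and 12.7 CPM in Tet2 KO and 16.7, 16.6 and 14.8 CPM in double lesion libraries, against 26.4, 12.4 and 17.2 CPM in Vav Cre libraries. Vav Cre held both the highest and the lowest of the 12 values, and all groups overlapped it. The log2 difference was 0.09 ± 0.23 in KDM6B OE, -0.30 ± 0.23 in Tet2 KO and -0.14 ± 0.23 in double lesion cells, with limma adjusted p-values of 0.854, 0.575 and 0.703.

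Gp1bb (ENSMUSG00000050761.4) lies at chr16:18620317-18622403 on the minus strand. In GENCODE M21, 91.1% of its exon bases are shared with Sept5 on the same strand and 41.5% with Gm49601, so its counts are uncertain; Sept5 was listed at 0.24 to 1.38 CPM. Gp1bb was at 4.45, 7.62 and 5.35 CPM in KDM6B OE, 5.40, 6.85 and 5.41 CPM in Tet2 KO and 3.73, 4.23 and 4.32 CPM in double lesion libraries, against 14.4, 11.8 and 4.22 CPM in Vav Cre libraries. Vav Cre 1 and 2 were above all other libraries, while Vav Cre 3 lay among the double lesion libraries. The log2 difference was -0.99 ± 0.34 in double lesion cells, with a 95% interval of -1.72 to -0.26 (limma, adjusted p = 0.0638). It was -0.60 ± 0.34 in KDM6B OE cells (limma, adjusted p = 0.321) and -0.56 ± 0.34 in Tet2 KO cells (limma, adjusted p = 0.485). In double lesion cells it passed with edgeR (-1.31, adjusted p = 0.0425) and with DESeq2 (-1.34, adjusted p = 0.00905), both on the recovered reads. It also passed without Vav Cre 3 (-1.47, limma, adjusted p = 0.00199), as did the KDM6B OE and Tet2 KO differences of -1.07 and -1.04 (limma, adjusted p = 0.0170 and 0.0481).

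Treml1 encodes a receptor held in platelet alpha granules and carried to the surface on activation. The gene (ENSMUSG00000023993.7) lies at chr17:48359916-48367176 on the plus strand. Its level was 5.68, 6.11 and 3.59 CPM in KDM6B OE, 5.53, 9.26 and 5.77 CPM in Tet2 KO and 5.37, 6.38 and 5.87 CPM in double lesion libraries, against 10.3, 10.9 and 5.40 CPM in Vav Cre libraries. Vav Cre 1 and 2 were the highest of the 12, and Vav Cre 3 was level with the lesion libraries. Treml1 differed by -0.66 ± 0.28 in KDM6B OE cells (limma, adjusted p = 0.204), -0.31 ± 0.28 in Tet2 KO cells (limma, adjusted p = 0.656) and -0.47 ± 0.28 in double lesion cells (limma, adjusted p = 0.272). Without Vav Cre 3 the KDM6B OE difference was -0.95 and passed (limma, adjusted p = 0.0344).

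**Figure D2:**
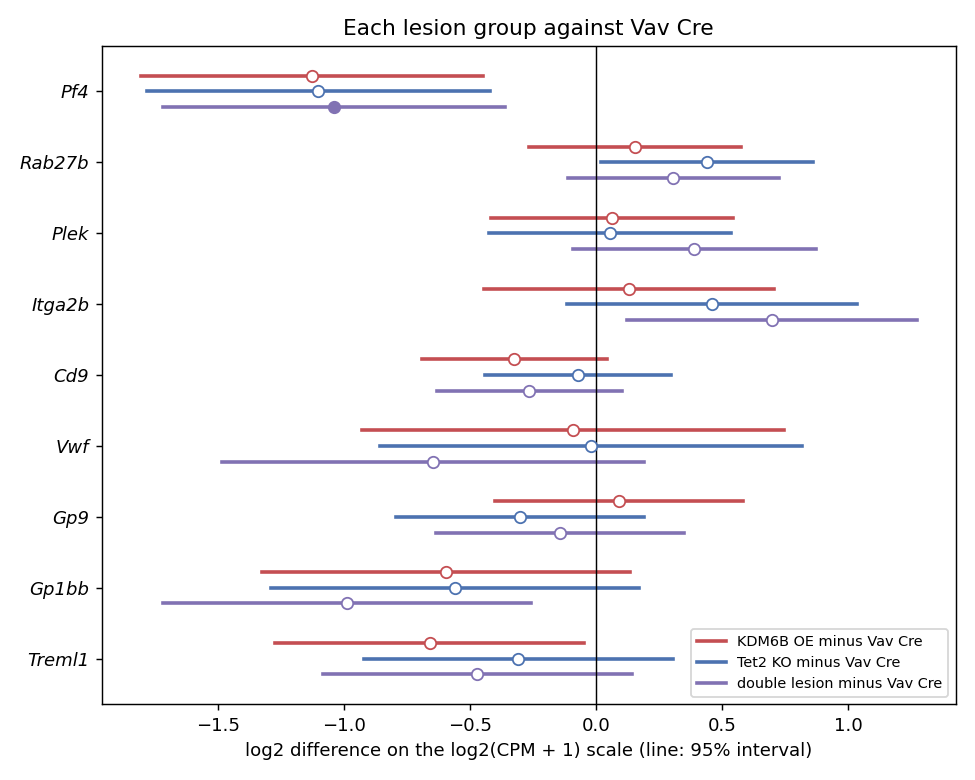
Log2 difference on the log2(CPM + 1) scale (horizontal axis) of the 9 genes (vertical axis) in KDM6B OE, Tet2 KO and double lesion cells, each against Vav Cre. Lines are 95% intervals, and the filled point, Pf4 in double lesion cells at -1.04, is the single difference with an adjusted p under 0.05.

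Read as a group, the 9 genes did not move in one direction. In double lesion cells 1 of 9 passed, lower, where 7.58% of all genes passed as lower and 7.34% as higher. Of the 9 differences from Vav Cre, 3 were positive in double lesion cells, 3 in Tet2 KO cells and 4 in KDM6B OE cells, where 54.4%, 54.2% and 55% of all genes were positive. The median difference of the 9 was -0.27 in double lesion, -0.07 in Tet2 KO and -0.09 in KDM6B OE cells, beside 0.05, 0.03 and 0.04 over all genes. Pf4 alone had libraries that did not overlap those of Vav Cre, in each of the 3 comparisons, where 32.8%, 12.6% and 22.6% of all genes did not overlap. With an unadjusted p under 0.05 there were 3 of the 9 in double lesion cells, 2 in Tet2 KO cells and 2 in KDM6B OE cells, where 32.3%, 13.5% and 21.6% of all genes had one, so these counts are near the background.

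Double lesion cells were then set against each single lesion. None of the 9 genes passed against KDM6B OE, where 0% of all genes passed, or against Tet2 KO, where 0.215% did. None of the 9 had an unadjusted p under 0.05 from limma, where 5.91% and 10.6% of all genes did. The SE here pools the spread of all groups, also that of Vav Cre, whose median SD was 0.28 against 0.15 to 0.21 in the others. With the compared groups alone, 61 of 13046 genes passed against KDM6B OE and 53 against Tet2 KO. None of the 9 was among them. Itga2b differed by 0.57 ± 0.27 from KDM6B OE (95% interval -0.01 to 1.14; limma, adjusted p = 0.848) and by 0.24 ± 0.27 from Tet2 KO. Vwf differed by -0.55 ± 0.39 from KDM6B OE and by -0.63 ± 0.39 from Tet2 KO, with intervals of -1.39 to 0.28 and -1.46 to 0.21. The differences of Pf4 were 0.09 ± 0.32 and 0.06 ± 0.32, with intervals of -0.59 to 0.77 and -0.62 to 0.74.

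Some of these groups were nonetheless apart in every library. Plek was higher and Gp1bb lower in all double lesion libraries than in all KDM6B OE and all Tet2 KO libraries, and Itga2b was higher in all double lesion than in all KDM6B OE libraries. That makes 3 of 9 genes apart from KDM6B OE, where 18.7% of all genes were apart, and 2 of 9 from Tet2 KO, where 21.6% were. Plek differed by 0.33 ± 0.22 from KDM6B OE and from Tet2 KO alike, and Gp1bb by -0.39 ± 0.34 and -0.43 ± 0.34.

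The interaction asks whether the double lesion difference departs from the sum of the single lesion differences on the log2 scale. None of the 9 genes passed, as for 0% of all genes. For Pf4 it was 1.19 ± 0.45 (95% interval 0.23 to 2.15), with an unadjusted p of 0.0188 from limma and an adjusted p of 0.999. The value restates that Pf4 was at about the same level with 1 lesion as with both. For the other 8 genes the interaction lay between -0.53 for Vwf and 0.50 for Treml1. Averaged over both Tet2 states, the transgene difference passed for none of the 9, where 4.35% of all genes passed, and was -0.53 ± 0.22 for Pf4 (limma, adjusted p = 0.145). Averaged over both transgene states, the Tet2 difference passed for none, where 0.207% of all genes did, and was 0.51 ± 0.19 for Itga2b (limma, adjusted p = 0.245) and -0.51 ± 0.22 for Pf4 (limma, adjusted p = 0.320). With no Cre named for KDM6B OE, the interaction and both averages cannot tell Cre apart from the lesions.

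The order of the 9 genes was compared on mean CPM per kilobase of exon, using the GENCODE M21 exon lengths. Cd9 was first in every group, at 71.0 ± 5.40 in KDM6B OE, 85.0 ± 11.5 in Tet2 KO, 74.0 ± 5.48 in double lesion and 91.3 ± 24.8 CPM per kilobase in Vav Cre cells. Pf4 came next in Vav Cre cells, at 72.4 ± 21.7 CPM per kilobase, where its libraries overlapped those of Cd9 and were all above those of Plek at 29.0 ± 12.02. With a lesion, Pf4 was at the level of Plek. The 2 genes stood at 31.5 ± 3.84 and 29.1 ± 4.86 CPM per kilobase in KDM6B OE, at 33.8 ± 12.9 and 29.0 ± 5.39 in Tet2 KO and at 34.97 ± 13.3 and 36.2 ± 1.37 in double lesion cells, with overlapping libraries.

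Gp9 and Itga2b followed, and their order differed between groups. Gp9 was above Itga2b in KDM6B OE cells, at 21.7 ± 2.69 and 14.7 ± 0.94 CPM per kilobase with no overlap. In double lesion cells Gp9 was at 18.2 ± 1.25 and Itga2b at 22.3 ± 5.16 CPM per kilobase, in Tet2 KO cells at 16.3 ± 1.61 and 18.6 ± 1.88, and in Vav Cre cells at 21.2 ± 8.10 and 14.5 ± 6.33, in each case overlapping. Treml1, Vwf, Gp1bb and Rab27b were the low genes of the set, with group means of 1.96 to 6.33 CPM per kilobase. The place of Gp1bb in this order is uncertain, as its counts are, since most of its exon bases are shared with Sept5. In double lesion cells Treml1 was above Rab27b in every library, and both were above all libraries of Vwf and Gp1bb. In KDM6B OE cells these 4 overlapped, and in Tet2 KO and Vav Cre cells Treml1 was above all libraries of Rab27b while Vwf overlapped both.

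**Figure D3:**
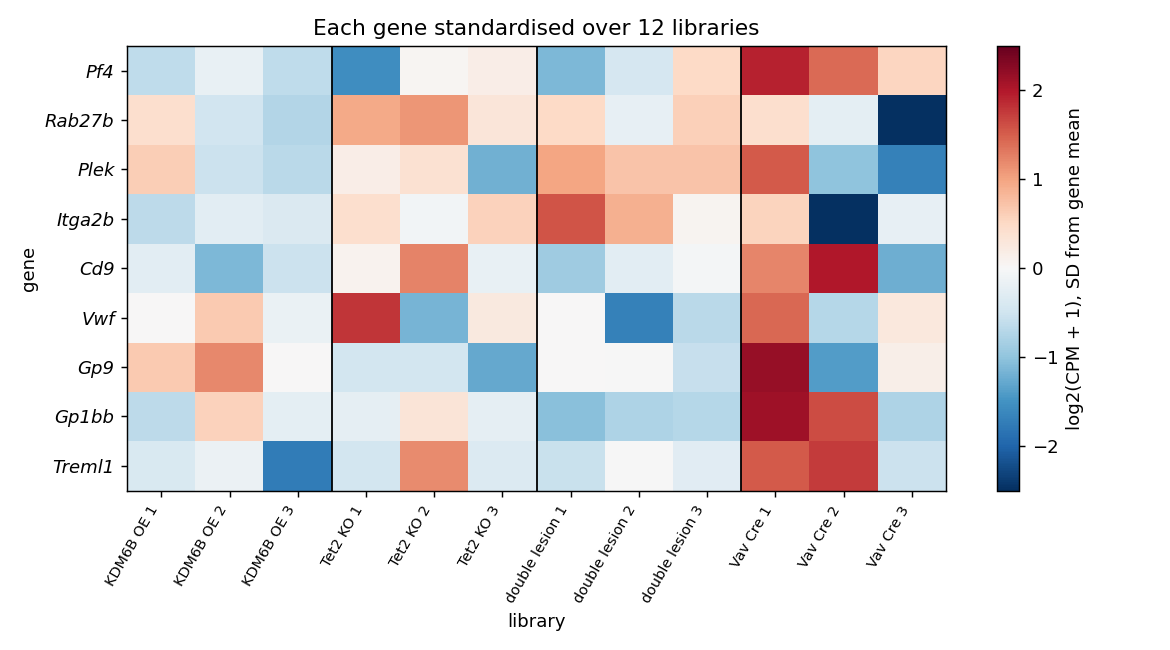
Level of the 9 genes (rows) in the 12 libraries (columns, 3 per group, groups parted by lines), as the number of SD by which log2(CPM + 1) lies above or below the gene's own mean. Vav Cre 1 is high for most genes, Vav Cre 2 is high for some and low for Itga2b and Gp9, and Vav Cre 3 is low for Rab27b and Plek.

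The spread of the 9 genes lay largely among the Vav Cre libraries. Vav Cre 1 was the highest of the 12 libraries for Pf4, Gp9, Gp1bb and Plek, Vav Cre 2 for Cd9 and Treml1, and Vav Cre 3 was the lowest for Cd9, Rab27b and Plek. Within that group library 1 was the highest for 7 of the 9 genes and library 3 the lowest for 6. The SD of log2(CPM + 1) among Vav Cre libraries was 0.42 for Cd9 to 0.84 for Gp1bb. It was the largest of the 4 groups for 7 genes, the exceptions being Pf4 and Vwf, whose SD was largest in Tet2 KO at 0.61 and 0.86. Over all tested genes the median SD was 0.15 in KDM6B OE, 0.21 in Tet2 KO, 0.15 in double lesion and 0.28 in Vav Cre libraries. Pooled over the groups, Vwf varied most among replicates, at 0.60, more than 95.5% of all genes, and Cd9 least, at 0.24.

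The profile of the 9 genes was summarised as the mean of their standardised levels in each library, and other genes were ranked by the root mean square difference from it over the 12 libraries. The nearest were Gadd45g at 0.34 SD, Cd38 at 0.39, Gtdc1 at 0.39, Selm at 0.42 and Tlr2 at 0.45. All 5 were highest in Vav Cre 1, with Cd38, an enzyme that breaks down NAD, at 38.3 CPM there and 11.5 to 21.4 CPM in the other libraries. The 9 genes, each of which enters that mean, lay between 0.69 SD for Gp1bb and 1.28 SD for Itga2b, which among the other tested genes would be ranks 112 and 5481.

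The other genes of the programme were read from 5 lists with 84 genes in the table, of which 83 passed the filter. In double lesion cells 11 were higher and 2 lower than in Vav Cre, with a median difference of 0.22, beside 7.34% of all genes higher, 7.58% lower and a median of 0.05. The same shares of all genes stand beside each list's count below, and no list was tested as a group. In KDM6B OE cells 1 was higher, with a median of 0.15, and in Tet2 KO cells none passed, with a median of 0.18. For the transgene difference averaged over both Tet2 states 3 were higher, Gata2, Srf and Syk, where 2.52% of all genes were, and each of these calls was lost under 12 or 13 of 18 alternatives. None passed between double lesion cells and either single lesion, in the interaction or for the Tet2 average.

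**Figure D4:**
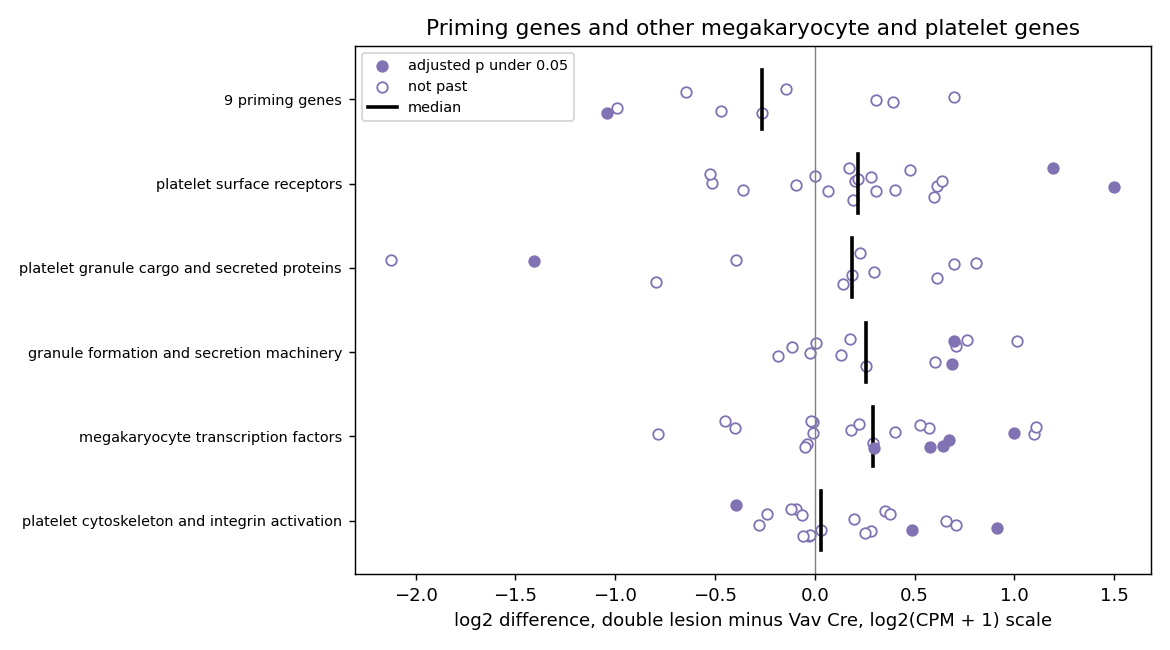
Log2 difference on the log2(CPM + 1) scale between double lesion and Vav Cre cells (horizontal axis) for the 9 priming genes and for 5 lists of other megakaryocyte and platelet genes (vertical axis). Each point is a gene, filled where the adjusted p is under 0.05, and the black bar is the list's median, which is -0.27 for the 9 genes and 0.03 to 0.29 for the other lists.

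Among platelet surface receptors 2 of 19 were higher in double lesion cells and none lower. Cd36, a scavenger receptor, was at 8.80, 9.51 and 9.80 CPM in double lesion and 2.97, 4.44 and 1.27 CPM in Vav Cre libraries, a log2 difference of 1.501 ± 0.36 (limma, adjusted p = 0.0188). Gp1ba and Gp5, which complete the receptor of Gp9 and Gp1bb, differed by 0.07 ± 0.31 and 0.22 ± 0.18, and Itgb3, the partner chain of Itga2b, by 0.19 ± 0.43, none of them passing.

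Of 11 granule cargo genes 1 was lower and none higher in double lesion cells. It was Clu, the chaperone clusterin, at 21.9, 12.6 and 20.0 CPM in double lesion and 119, 39.7 and 24.0 CPM in Vav Cre libraries. Its log2 difference was -1.40 ± 0.43 (limma, adjusted p = 0.0436), and -0.77 without Vav Cre 1, and it did not pass under 11 of 19 alternatives, that one among them. Ppbp, which encodes the other abundant platelet chemokine and stands beside Pf4 in the chemokine cluster, was at 2.46, 2.23 and 8.75 CPM in double lesion and 2.16, 2.56 and 1.27 CPM in Vav Cre libraries, a log2 difference of 0.70 ± 0.42 (limma, adjusted p = 0.267). Of 13 genes of granule formation and secretion 2 were higher and none lower. Hps4, which serves the making of dense granules, was at 24.6, 20.0 and 21.4 CPM in double lesion and 13.1, 11.8 and 14.5 CPM in Vav Cre libraries (0.70 ± 0.17; limma, adjusted p = 0.0206). It was also the single one of the 83 that was higher in KDM6B OE cells, at 24.7, 21.0 and 27.8 CPM (0.85 ± 0.17; limma, adjusted p = 0.0444), a call lost under 12 of 19 alternatives. Vps33b, needed for alpha granules, differed by 0.69 ± 0.21 in double lesion cells (limma, adjusted p = 0.0413), a call lost under 11 of 19 alternatives.

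Of 21 megakaryocyte transcription factors 5 were higher in double lesion cells and none lower. Srf, which drives actin and cytoskeletal genes, was at 24.99, 27.2 and 23.3 CPM in double lesion and 7.85, 14.5 and 15.4 CPM in Vav Cre libraries (0.998 ± 0.27; limma, adjusted p = 0.0279). Srf also drives immediate early genes, whose summed level was higher in the same libraries, as given above, and their link to the Srf values was not tested. Gata2, a stem cell and early megakaryocyte factor, was at 240, 224 and 203 CPM in double lesion and 189, 95.4 and 149 CPM in Vav Cre libraries (0.67 ± 0.18; limma, adjusted p = 0.0294). Meis1 and Ldb1 differed by 0.64 ± 0.16 and 0.58 ± 0.16 (limma, adjusted p = 0.0209 and 0.0312), and the fifth, Nfe2, by 0.30 ± 0.09 (limma, adjusted p = 0.0469). The Nfe2 call was lost under 14 of 19 alternatives, and Nfe2 is named after its values were seen. Gata1, the factor of megakaryocyte and erythroid maturation, was at 24.2, 52.0 and 41.4 CPM in double lesion and 48.3, 119 and 47.7 CPM in Vav Cre libraries and did not pass (-0.78 ± 0.38; limma, adjusted p = 0.168). Vav Cre 2, the library at 119 CPM, is the one whose erythroid markers summed to 1720 CPM, most of it Car1. The part of these markers in the Gata1 values was not tested.

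Of 19 genes of the platelet cytoskeleton and integrin activation 2 were higher and 1 lower in double lesion cells. Myh9, the non-muscle myosin of platelets, was at 157, 145 and 139 CPM in double lesion and 86.2, 53.9 and 101 CPM in Vav Cre libraries (0.91 ± 0.21; limma, adjusted p = 0.0166). The tyrosine kinase gene Syk differed by 0.49 ± 0.13 (limma, adjusted p = 0.0280). Rasgrp2, which activates integrins through Rap1, was lower, at 95.5, 103 and 91.9 CPM in double lesion and 131, 118 and 135 CPM in Vav Cre libraries (-0.40 ± 0.09; limma, adjusted p = 0.0187). Without double lesion 1, 12 of the 13 genes that passed in these 5 lists no longer did, with limma adjusted p-values of 0.0747 to 0.144. The same number was lost when the compared groups alone were fitted, at 0.0516 to 0.143, while 8 were lost without double lesion 2, 10 without double lesion 3 and 8 without Vav Cre 2.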

How the data were processed

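Poly(A) RNA of sorted LSK cells, from 10 to 20 ng of total RNA, was amplified with the SMARTer v4 kit and made into libraries with Nextera, per the labels' protocols. These kits do not mark strand. TopHat2 2.0.10, HTSeq 0.6.0, edgeR 3.8.6 and mm10 are named in the submitters' processing notes; the sources used here do not give the annotation. The authors deposited one table of scaled read counts, CPM over an effective library size (recorded as a signal because its columns do not sum to a common total), in which 100% of values were whole multiples of what a single read is worth (tolerance 1e-06), so whole reads were recovered. The column totals were 947374 to 1076728. Replicates differed by more than counting noise, with a chi-square of 18.9 to 98.5 per gene, so none was merged.

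The fit used limma 3.58.1 in R 4.3.3, lmFit and eBayes with a trend, on log2(CPM + 1), over all 12 libraries and 8 comparisons. Alternatives were a pseudocount of 0.25, no filter, edgeR 4.0.16 and DESeq2 1.42.0 on the recovered reads, the compared groups alone, the replicate number as a block, a sex term and leaving out each library. The scripts were tested on simulated data. Every one of the 9 genes is named; from the 5 lists, the up to 4 genes with the largest differences past the threshold against Vav Cre were named per list. Gp1ba, Gp5, Itgb3, Ppbp, Gata1 and Nfe2 were added outside that rule. A gene that the rule names is not reported here. The 9 genes, the lists and the tests were chosen with earlier results of these data known. Exon lengths and overlaps came from GENCODE M21.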

Additional observations from a re-analysis of the deposited data

How the results depend on the processing

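Each difference of the 9 genes was recomputed under up to 19 alternatives, giving 1341 values over 72 differences. Of these 1310 kept their side of the threshold, 10 lost the call, all of them Pf4 in double lesion cells, and 21 gained one. No called difference changed sign, while 62 values over 25 differences that passed under neither setting did.

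The number of the 9 genes called against Vav Cre was 1 in KDM6B OE, 1 in Tet2 KO and 2 in double lesion cells with DESeq2, 0 in double lesion cells from the compared groups alone, and 2 there with the replicate block. edgeR called 1 gene in double lesion cells as well, but Gp1bb in place of Pf4. Leaving out a library gave counts of 0 to 4 for KDM6B OE, of 0 to 2 for Tet2 KO and of 0 to 3 for double lesion cells, of 0 to 4 for the average transgene difference and 0 to 1 for the average Tet2 difference, in each case with the most without Vav Cre 3. Without that library the calls over all 13046 genes rose as well, to 1934, 307, 3585, 2771 and 284 in the same order. The remaining 3 comparisons stayed at 0 of the 9 under every alternative run.

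Over all genes the calls were 78 in KDM6B OE, 4 in Tet2 KO and 1947 in double lesion cells against Vav Cre, 0 and 28 in double lesion cells against KDM6B OE and Tet2 KO, 0 for the interaction, 568 for the transgene average and 27 for the Tet2 average. DESeq2 gave 737, 160, 2676, 20, 143, 5, 1624 and 360 in the same order. The compared groups alone gave 22, 0, 289, 61 and 53 for the first 5, and could not give the other 3. The replicate block gave 284, 1, 2699, 3, 37, 0, 1516 and 97. A sex term gave 162 in KDM6B OE cells and 18 between double lesion and Tet2 KO cells, and edgeR gave 15 for the Tet2 average. Leaving out a library gave 22 to 1934, 1 to 307, 304 to 3585, 0 to 5, 9 to 55, 0 to 0, 94 to 2771 and 2 to 284. The other alternatives were within 1.5 times. The cause was not tested. At an unadjusted p under 0.05 limma found 771 genes between double lesion and KDM6B OE cells and 578 in the interaction.

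Whether the replicate numbers pair the libraries was not settled. Deviations of same-numbered libraries correlated above 0.1 in 10 of 18 pairs of libraries (median 0.14, range -0.15 to 0.39). In the 36 pairs with different numbers the median was -0.04. Pairs numbered 1 correlated at 0.16 to 0.39 and those numbered 2 at 0.01 to 0.34, while those numbered 3 ran from -0.15 to 0.30. The block therefore stands as a setting only. Under it Gp1bb gained a call in double lesion cells (adjusted p = 0.0450).

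Of 320 values for the pathway genes named as passing, 124 lost the call. Treml1 and Gp1bb, at under 15 CPM, rest on 92 to 339 reads a library, and 3 reads amount to at most 0.139 CPM.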
